A study of Homo sapiens with 6 samples.

Results

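The NR4A group comprises 3 genes, NR4A1, NR4A2 and NR4A3, among 19823 genes measured in human neurons with and without isoproterenol. The rows of the expression table bearing these 3 gene names were taken, and all 3 passed the filter on low values that left 18130 genes for testing. They were selected on their response to isoproterenol in these same 6 samples, so the measured normalized counts of the contrast chose them, and their changes are given as a description with no p-value.

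Poly(A) RNA-seq was performed on glutamatergic neurons (iNeurons) differentiated from WTc11, an established human induced pluripotent stem cell line in which doxycycline switches on the neuronal transcription factor NGN2. The line used for the study was a clone that also carries dCas9-KRAB, the repressor of CRISPR interference, and every sample, untreated or treated, received the guide against RBM12, an RNA-binding protein. Neurons of 3 samples were left untreated and those of the other 3 were exposed to isoproterenol, a β-adrenergic agonist that raises cAMP, at a dose and for a duration that the labels do not give. The labels do not state whether replicates came from separate cultures, so the p-values below measure the spread between these samples, which may be technical.

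NR4A1 (also called NUR77), NR4A2 (NURR1) and NR4A3 (NOR1) encode orphan nuclear receptors, transcription factors of the steroid receptor superfamily for which no classical hormone is established. They act as monomers on the NGFI-B response element (NBRE), and NR4A1 and NR4A2 also as heterodimers with the retinoid X receptors. Because they are thought to depend on their abundance rather than on a hormone, their transcription is a main point of control, and in neurons they are known as immediate early genes switched on by calcium and cAMP through CREB, the cAMP-response element (CRE) binding protein. NR4A2 is in addition a defining factor of midbrain dopaminergic neurons.

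The genes lie on different chromosomes. In GRCh38 with GENCODE release 44, NR4A1 (ENSG00000123358) is on the plus strand of chromosome 12 from 52022832 to 52059507 with 22 annotated transcripts, NR4A2 (ENSG00000153234) on the minus strand of chromosome 2 from 156324437 to 156342348 with 15, and NR4A3 (ENSG00000119508) on the plus strand of chromosome 9 from 99821855 to 99866891 with 4. Exons of NR4A1 share 754 bases with the antisense gene NR4A1AS, which was not analysed here. Whether reads were assigned by strand is not stated, so reads from these bases cannot be told apart. STX17-AS1 crosses NR4A3 on the opposite strand without a shared exonic base.

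Primer and promoter sequences bear on how these genes are read. The study's own RT-qPCR primers for NR4A1, designed oligos, are shown because they mark the part of the transcript that an amplification assay would count. The NR4A3 upstream sequence is shown because it carries several CRE core motifs. In capitals are the CRE core TGACG and its reverse complement CGTCA.
NR4A1 forward primer: agtgcagaaaaacgccaagt
NR4A1 reverse primer: ttcggacaacttccttcacc
NR4A3 upstream, chr9:99821635-99821854 (GRCh38.p14, plus strand): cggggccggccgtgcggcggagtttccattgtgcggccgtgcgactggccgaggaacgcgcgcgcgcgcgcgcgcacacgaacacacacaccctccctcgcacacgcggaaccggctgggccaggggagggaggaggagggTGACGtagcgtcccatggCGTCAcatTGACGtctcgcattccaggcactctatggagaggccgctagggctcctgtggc
The forward primer lies at chr12:52056035-52056054, in coding exon 3 of the canonical transcript NR4A1-204, and the reverse primer spans the junction of coding exons 3 and 4, between 52056149 and 52056502. They amplify 134 bases of spliced transcript, and 7 of the 22 annotated transcripts hold both. The RNA-seq values below instead sum reads over all exons of the gene.

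In RefSeq promoter windows of 300 bases (250 before to 50 after a start), the NR4A3 window held 4 CRE cores, at 109, 91, 83 and 25 bases upstream of the RefSeq start. The last of these lies beyond the printed stretch, which stops at the first GENCODE start. Only 0.313% of the 35116 windows held 4 or more cores, counting both strands, while 24.6% held at least 1. The NR4A3 window had no full palindromic CRE (TGACGTCA, present in 1.85% of windows, where it counts as 2 overlapping cores) and no NBRE (AAAGGTCA on either strand, in 1.22%). NR4A1 had 2 windows, with starts 28.6 and 13.7 kb upstream of that of its canonical transcript, and neither contained any of these letters. NR4A2 had no entry. These matches describe the letters of the windows and were not tested against the expression data. Among tested genes with a window, the median log2 change was -0.0070 for 427 genes with a full CRE, -0.00044 for 84 genes with 4 or more cores, NR4A3 included, and -0.00019 for all 11680. In limma, a linear model fitted to all genes, here with the shared replicate number of the samples as a block and at a false discovery rate (FDR) of 0.05, 4.22% of the genes with a full CRE were called higher and 2.11% lower. With 4 or more cores the shares were 5.95% and 1.19% (5 and 1 genes), beside 3.37% and 2.48% of all 11680, and these differences were not tested. The 84 genes include NR4A3, which was chosen on this contrast, so nothing is read from their shares.

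NR4A1 showed the steepest response of the 3. Its normalized counts in replicates 1 to 3 were 103.4, 110.3 and 135.5 without treatment and 325.3, 543.2 and 1023.7 after isoproterenol. All isoproterenol values lay above all untreated values, and the lowest treated sample exceeded the highest untreated sample 2.40-fold. The mean was 116.4 ± 16.9 untreated and 630.7 ± 357.3 treated (SD, n = 3 per group), a 5.42-fold ratio of means, and the log2 fold change on log2(normalized count + 1) was 2.28 (SE 0.47). Labels give both groups the same replicate numbers, and within these numbered pairs the treated value of NR4A1 was 3.15-, 4.92- and 7.55-fold the untreated one.

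NR4A2 was the least abundant in reads. Replicates 1 to 3 had 69.96, 77.4 and 62.1 normalized counts without treatment and 92.8, 101.5 and 108.7 after isoproterenol. Here too the groups did not overlap, although the lowest treated sample was only 1.20-fold above the highest untreated sample. The mean went from 69.8 ± 7.67 to 101.0 ± 7.98 (SD, n = 3 per group), with a log2 fold change of 0.53 (SE 0.16) and pair ratios of 1.33, 1.31 and 1.75. Between 60 and 106 recovered reads stood behind each value, so the exact 95% Poisson interval of a single sample was wide, from 45.8 to 77.2 reads in the lowest sample and from 86.8 to 128.2 in the highest, for counting error only.

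NR4A3 was the most abundant. Its normalized counts in replicates 1 to 3 were 1114, 1339 and 1221 without treatment and 1570, 1698 and 1879 after isoproterenol. Again every treated sample lay above every untreated one, the nearest 2 being 1.17-fold apart. The mean went from 1225 ± 112.6 to 1715 ± 155.6 (SD, n = 3 per group), a log2 fold change of 0.49 (SE 0.073), and the pair ratios were 1.41, 1.27 and 1.54. In bulk RNA, a change in the number of cells that express a gene cannot be told apart from a change in RNA per cell.

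**Figure D1:**
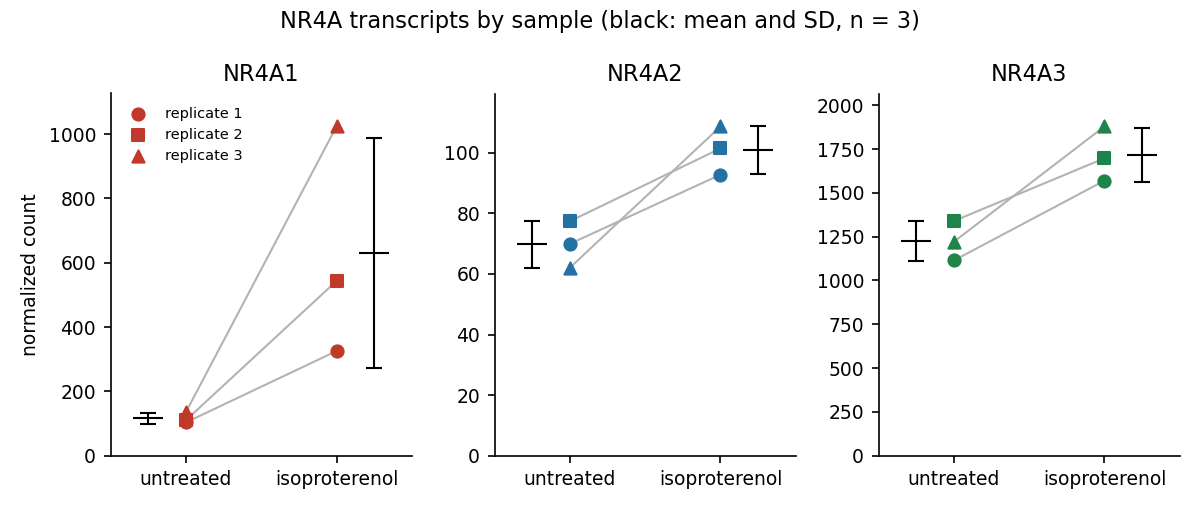
Normalized counts (linear y axes from 0) of NR4A1, NR4A2 and NR4A3 in 3 untreated and 3 isoproterenol samples; gray lines join samples with the same replicate number, and black bars give mean and SD. All treated values lie above all untreated values in each panel, and NR4A1 spans 103.4 to 135.5 untreated and 325.3 to 1023.7 treated.

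The non-overlap of the 3 genes stands beside a background of 6.73% of the 18130 tested genes with all treated values higher and 6.19% with all treated values lower. Higher values in all 3 pairs, seen for 3 of 3 NR4A genes, occurred in 18.5% of tested genes. Since the genes were chosen on this contrast, nothing is read from these counts. By size of the log2 rise, NR4A1 ranked 3 of 18130, NR4A2 573 and NR4A3 693. Among the 13063 genes that averaged 50 normalized counts or more, where low counts enlarge fewer changes, the ranks were 2, 64 and 86.

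Fold change and added transcript signal differed in order. The treated mean of NR4A1 exceeded its untreated mean by 514.3 normalized counts and that of NR4A3 by 490.8, although the fold of NR4A3 was far smaller. For NR4A2 the difference was 31.2. These are counts per gene and are not corrected for gene length.

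Replicate spread also differed between the genes. In isoproterenol samples the coefficient of variation (CV) of NR4A1 was 56.7%, which was 13.9 times the 4.09% that read counting alone would give, and in untreated samples it was 14.5%, or 1.56 times counting error. The CVs of NR4A2, 11.0% untreated and 7.90% treated, were at the size of counting error in both groups (0.913 and 0.773 times). NR4A3 had CVs of 9.19% and 9.07%, at 3.20 and 3.66 times counting error. The difference in spread between genes was not tested.

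All 3 genes were lowest in isoproterenol replicate 1 and highest in isoproterenol replicate 3 among treated samples, and in each the largest log2 change within a pair was that of pair 3 (2.91 for NR4A1, 0.80 for NR4A2, 0.62 for NR4A3). Untreated samples did not share an order, NR4A1 being highest in replicate 3 and NR4A2 and NR4A3 in replicate 2. Without isoproterenol replicate 3 the log2 changes were 1.85, 0.48 and 0.42, and without isoproterenol replicate 1 they were 2.68, 0.59 and 0.55. In pair 3 the other immediate early genes also had their highest median log2 change (1.08, against 0.46 and 0.41 in pairs 1 and 2), while the median of all tested genes in that pair was -0.0072. Recovered reads of pair 3 numbered 20370896 and 20316986.

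To compare levels between genes, normalized counts were divided by the kilobases of exon of each gene. Untreated levels did not enter the choice of the genes other than through the contrast. On the union of all exons, NR4A3 was at 194.0 ± 17.8 normalized counts per kb in untreated samples, NR4A2 at 17.0 ± 1.87 and NR4A1 at 16.0 ± 2.32 (SD, n = 3). NR4A3 was thus above the other two in every untreated sample, and its level was higher than that of 75.6% of 18064 genes with a length, whose median was 61.2 per kb. NR4A1 and NR4A2 lay at the percentiles 25.5 and 26.6, and they did not differ beyond their spread. NR4A2 was the higher of the pair in untreated replicates 1 and 2 and NR4A1 in replicate 3.

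The order of NR4A1 and NR4A2 depends on the length used, since NR4A1 has many annotated transcripts whose exons add up to 7295 bases while its canonical transcript has 2485. Divided by the canonical length, a choice made after seeing the data, NR4A1 stood at 46.8 ± 6.81 per kb, NR4A2 at 20.1 ± 2.21 and NR4A3 at 218.5 ± 20.1 in untreated samples. NR4A3 was the highest of the 3 in untreated samples with each of the lengths tried. In isoproterenol replicate 3, however, canonical length put NR4A1 at 412.0 per kb, above NR4A3 at 335.3.

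With isoproterenol the summed level of the group, on union exon length, was 315.8, 368.0 and 464.4 per kb in replicates 1 to 3, against 207.6, 246.0 and 227.0 untreated. The groups did not overlap. NR4A3 made up 85.4% of the untreated sum (85.0% to 86.2%) and 72.0% of the treated sum (64.1% to 78.7%), whereas the share of NR4A1 was 7.05% untreated and 21.5% treated (14.1% to 30.2%). NR4A2 took 7.50% and 6.52%. On canonical length, the share of NR4A1 was 16.4% untreated and 40.8% treated, and that of NR4A3 76.5% and 54.0%.

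**Figure D2:**
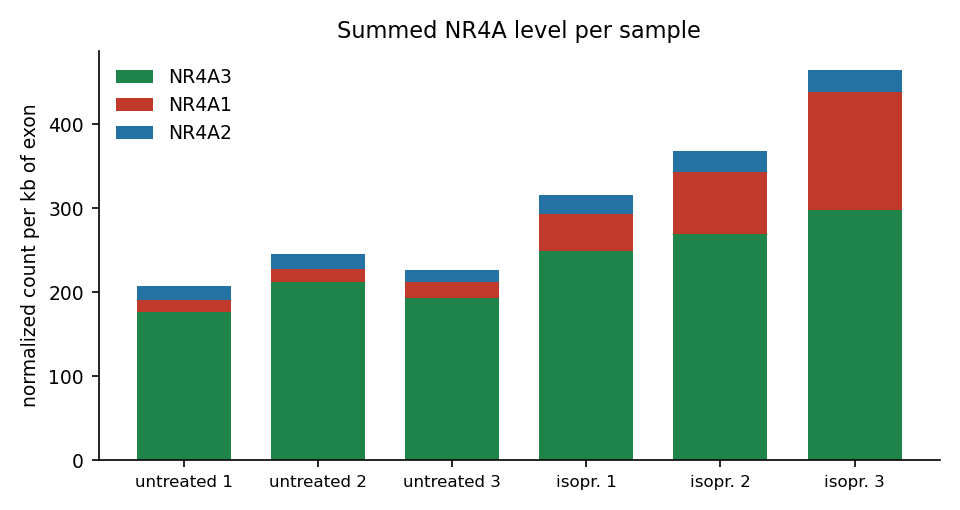
Stacked bars of normalized count per kb of exon (union of all exons, y axis from 0) for NR4A3, NR4A1 and NR4A2 in each of the 6 samples. NR4A3 forms the largest part of each bar, and the NR4A1 part spans 14.2 to 18.6 per kb in untreated samples and 44.6 to 140.3 per kb with isoproterenol.

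Immediate early genes are transcribed within minutes of a stimulus from factors already present in the cell. Outside the NR4A group, 24 such genes were listed from general knowledge, of which 22 had a row and 21 were tested. Their median log2 change was 0.66, beside 0.0015 for all tested genes, and 20 of 21 had a change above 0. In limma without the replicate block 0 of 21 passed FDR 0.05 in either direction, although 17 had an unadjusted p under 0.05. Over all 18130 tested genes, 1393 had an unadjusted p under 0.05 in that fit. Across all genes that fit called 0.00552% higher and 0.011% lower. With the replicate block, 15 of 21 rose and 0 fell, against a background of 2.82% of all tested genes called higher and 2.06% lower. In edgeR without the block 4 immediate early genes rose, among 8 risers of all tested genes, and in DESeq2 3 among 17. Blocked edgeR called 15 of them among 499 risers, and blocked DESeq2 8 among 94. Leaving out a library from the limma fit without the block gave between 0 and 2 immediate early genes that rose, beside 0 to 43 of all tested genes.

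The immediate early genes with the largest rises in the blocked fit were transcription factors and signaling genes. FOSB, an AP-1 subunit, had 6.27, 1.94 and 10.3 normalized counts without treatment and 58.9, 138.4 and 267.7 after isoproterenol (replicates 1 to 3). NPAS4, an activity-dependent factor of neurons, had 3.13, 0 and 8.28 without treatment and 36.9, 61.1 and 109.8 after it. Both start from very few reads, so that their log2 changes of 4.39 and 4.24 depend on the pseudocount. FOSL2 and FOS, AP-1 subunits as well, had log2 changes of 1.84 and 1.44, GEM, a small GTPase, 1.14, and EGR1, a zinc finger factor, 1.13. By log2 change, NR4A1 took place 3 among these genes and the NR4A genes together (24 in all), NR4A2 place 14 and NR4A3 place 16. By untreated level per kb the order was another, with NR4A3 at place 6, NR4A2 at 17 and NR4A1 at 18.

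**Figure D3:**
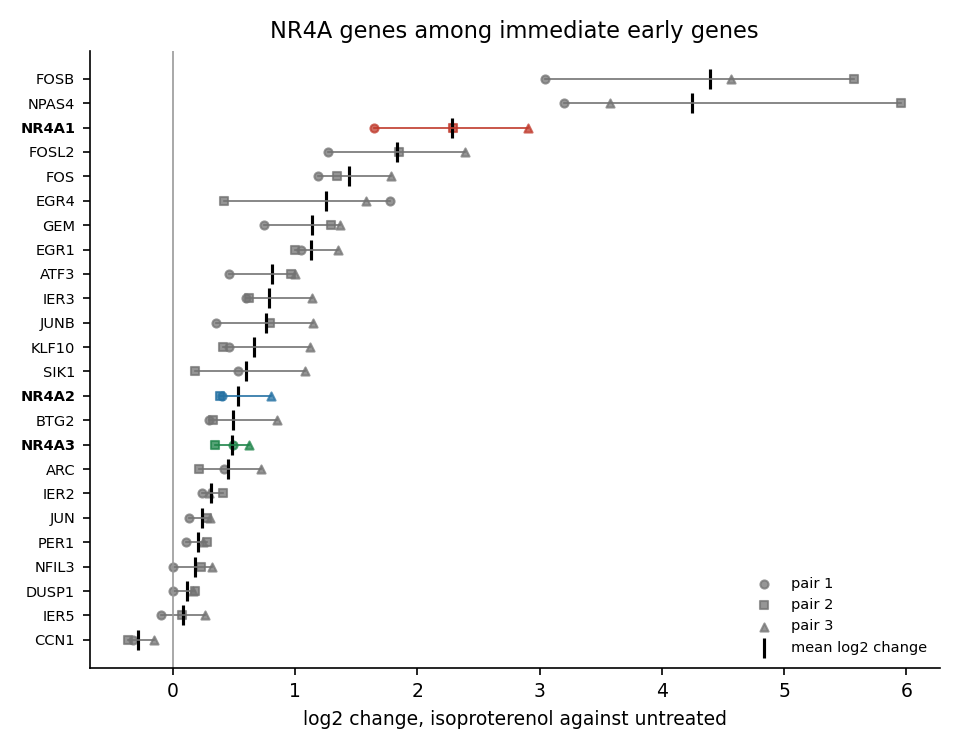
Log2 change between isoproterenol and untreated samples for 21 other immediate early genes and the 3 NR4A genes (names in bold), sorted by the mean log2 change (black ticks); circles, squares and triangles are pairs 1, 2 and 3. NR4A1 stands at 2.28 behind FOSB (4.39) and NPAS4 (4.24), NR4A2 at 0.53 and NR4A3 at 0.49, each above 0 in every pair.

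The rest of the nuclear receptor family was examined next. Of the 45 human receptors outside the NR4A group, 34 had a row and 31 were tested, and their median log2 change was -0.037, with 14 above 0 and 17 below. None passed FDR 0.05 in limma, edgeR or DESeq2 without the replicate block. In limma 5 had an unadjusted p under 0.05, beside 1393 of all 18130 tested genes. With the block 2 of 31 rose and 2 fell in limma, beside 2.82% and 2.06% of all tested genes. The blocked edgeR fit called 2 and 2 as well, beside 499 higher and 426 lower of all 18130, and 0 passed in DESeq2. NR4A1, NR4A2 and NR4A3 occupied places 1 to 3 of 34 by log2 change, which their selection on this contrast favors. By untreated level per kb NR4A3 was at place 5 of 34, below NR2F6, THRA, RXRG and RXRB.

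RARA, a retinoic acid receptor, went from 296.6, 316.4 and 318.6 normalized counts to 345.2, 419.8 and 498.5 in replicates 1 to 3, a log2 change of 0.42 (limma adjusted p 1.12e-04 with the block, 0.273 without). The groups did not overlap. ESRRB, an estrogen-related orphan receptor, had a log2 change of 0.46 (limma adjusted p 0.0171 with the block, 0.509 without). THRA, a thyroid hormone receptor, fell by 0.13 on the log2 scale (limma adjusted p 0.00944 with the block, 0.596 without).

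The retinoid X receptors, the dimer partners of NR4A1 and NR4A2, gave different calls. RXRG had 602.5, 748.9 and 567.9 normalized counts untreated and 489.9, 599.7 and 530.3 with isoproterenol, lower in each pair, and its log2 change was -0.24 (limma adjusted p 0.0117 with the block, 0.596 without). The groups overlapped. RXRA and RXRB had log2 changes of 0.10 (SE 0.095) and 0.024 (SE 0.065), and neither passed the test with or without the block (limma adjusted p 0.61 and 0.888 with it).

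**Figure D4:**
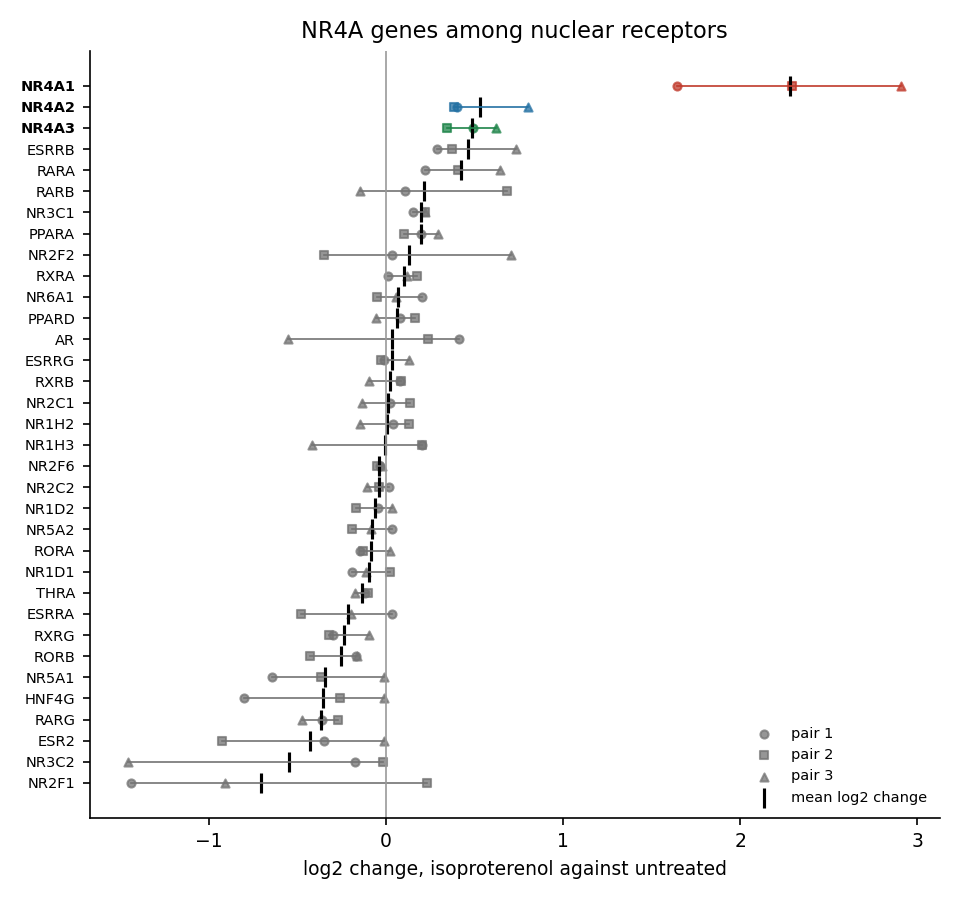
Log2 change between isoproterenol and untreated samples for 31 other nuclear receptors and the 3 NR4A genes (names in bold), sorted by the mean log2 change (black ticks); circles, squares and triangles are pairs 1, 2 and 3. The NR4A genes stand at the top with 2.28, 0.53 and 0.49, followed by ESRRB (0.46) and RARA (0.42).

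Regulators around the NR4A genes were then examined in the order of the pathway. RBM12, the gene targeted in all samples, had 244.3, 278.7 and 266.9 normalized counts without treatment and 194.6, 237.6 and 232.8 after isoproterenol (log2 change -0.25, limma adjusted p 0.607, and 0.131 with the block). Since samples with a control guide were not analysed here, these values do not check the knockdown. The 20 upstream factors were CREB family members, CREB coactivators, SRF, MEF2 and ELK factors, kinases and deacetylases known to control NR4A transcription. Without the block 0 of them passed FDR 0.05 in limma, edgeR or DESeq2. In limma 4 had an unadjusted p under 0.05, beside 1393 of all 18130 tested genes. The median log2 change was 0.020, with 14 above 0 and 6 below. With the block HDAC4, a class IIa histone deacetylase, rose (0.22, limma adjusted p 0.0454). CRTC1, a CREB coactivator, fell (-0.17, limma adjusted p 0.0025), with overlapping groups. These calls, 1 of 20 in each direction, stand beside 2.82% higher and 2.06% lower over all tested genes. Both were called by edgeR with the block too, and 0 by DESeq2 with it. The kinase SIK1 and CREM, a CREB family member, had larger log2 changes than HDAC4, 0.60 and 0.27. Neither was called (limma adjusted p 0.105 and 0.102 with the block).

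Of 16 coregulators of nuclear receptors, 0 passed without the block in limma, edgeR or DESeq2, and the median log2 change was 0.0045. In limma 2 had an unadjusted p under 0.05, beside 1393 of all 18130 tested genes.

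Known targets of the receptors were also listed. Of 9 dopaminergic genes that NR4A2 regulates in midbrain neurons, 7 were tested, and the median log2 change was 0.055. With or without the block, 0 passed in limma, edgeR or DESeq2. In limma without it 1 had an unadjusted p under 0.05, beside 1393 of all 18130 tested genes. Among the dopaminergic genes with at least 50 normalized counts, SLC18A2, the vesicular monoamine transporter, had a log2 change of 0.098 (SE 0.14). GCH1, which makes the cofactor of tyrosine hydroxylase, had 0.055 (SE 0.16), and DDC, which makes dopamine from L-DOPA, -0.042 (SE 0.16). Below that level, DLK1 and SLC6A3 had larger changes of 0.76 (SE 0.29) and 0.72 (SE 0.46), higher in every pair. Of the 7 tested, 6 changes were above 0 and 1 below. Of 10 other reported targets 5 were tested, with a median of 0.44 and 0 calls without the block in limma, edgeR or DESeq2. In limma without it 2 had an unadjusted p under 0.05, beside 1393 of all 18130 tested genes. That median is the value of SPP1 (SE 0.42), which had means of 11.0 and 14.1 normalized counts and was higher in pair 1 only. FBP1, SLC2A4 and E2F1 also averaged under 50 normalized counts, and E2F1 was lower in every pair (-0.37). With the block 1 of the 5 tested targets was called, beside 2.82% of all tested genes called higher in that fit. It was ENO3, a muscle enolase, which rose (0.24, limma adjusted p 0.0121), in edgeR also, and 0 passed in DESeq2. Among 139 tested genes with an NBRE in a promoter window, the median log2 change was -0.011. With the block, 7.19% of them were called higher and 2.88% lower in limma, beside 3.37% and 2.48% of the 11680 tested genes with a window, and this difference was not tested.

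Genes near NR4A1, NR4A2 and NR4A3 were not called. Within 500 kb of any of the 3 genes, 20 genes had a row and 17 were tested, with log2 changes from -0.61 to 0.46 and a median of -0.0083. In limma 0 passed FDR 0.05 without or with the replicate block, 0 had an unadjusted p under 0.05 without it, and edgeR and DESeq2 called 0. The nearest tested genes to NR4A1 were GRASP (also called TAMALIN), 6.94 kb away, with 24.3 and 34.4 mean normalized counts and a log2 change of 0.46 (limma adjusted p 0.717, and 0.434 with the block), ATG101 at 9.74 kb (0.039) and ACVR1B at 25.8 kb (-0.0026). On chromosome 2 LINC01876 (69.5 kb from NR4A2) and GPD2 (92.9 kb) had -0.14 and -0.044. STX17-AS1, which crosses NR4A3, had -0.074, STX17 at 39.8 kb -0.0091, and ERP44 at 112.3 kb -0.13.

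**Figure D5:**
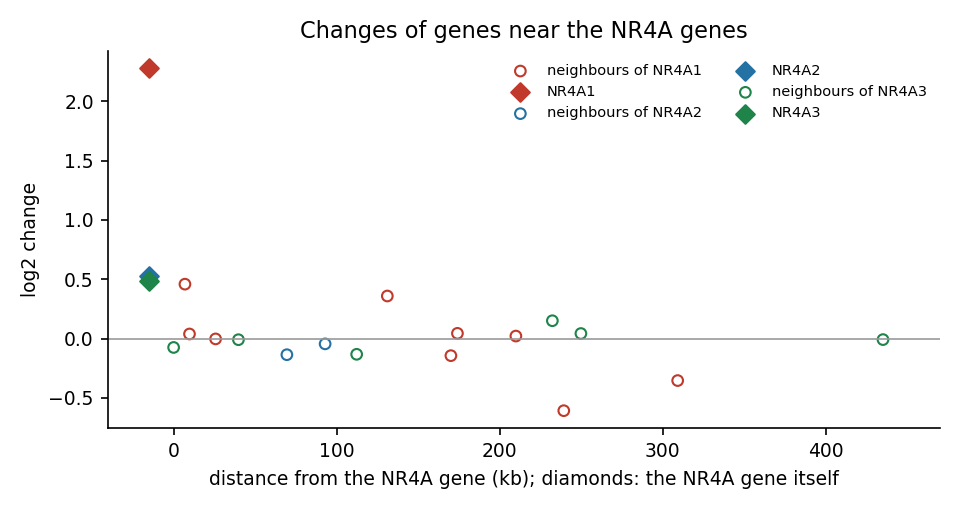
Log2 change (y axis) of 17 tested genes within 500 kb of NR4A1, NR4A2 or NR4A3 against their distance in kb (x axis, open circles), with the NR4A genes themselves as diamonds drawn left of 0. Neighbors run from -0.61 to 0.46, below the 0.49, 0.53 and 2.28 of the NR4A genes.

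The profile of each gene over the 6 samples was compared with those of all 13062 other genes that averaged 50 normalized counts or more, by the root mean square (RMS) difference of mean-centered log2 values, in which a smaller value means more alike. This likeness uses the samples that chose the genes and is a description. The genes most like NR4A1 were FOSL2 (RMS 0.37), FOS (0.475), BHLHE40, a basic helix-loop-helix repressor (0.531), GEM (0.687) and EGR1 (0.692). NR4A2 came at place 52 (0.987) and NR4A3 at place 56 (0.991).

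NR4A2 and NR4A3 had closer profiles, with an RMS difference of 0.0914, which put NR4A3 at place 5 from NR4A2 and NR4A2 at place 4 from NR4A3. NR4A1 was at place 13059 from both. The measure depends on the size of a change as well as on its shape, and NR4A1 had the largest log2 change of the 3. Its place therefore does not mean an opposite profile, since all 3 genes were higher in every pair. STXBP4 was the most similar to each (0.0749 and 0.0506). After it came HSD3B7 (0.0804), BTG2, an antiproliferative immediate early gene (0.0805), and SLC25A34 (0.085) for NR4A2, and FCHSD1 (0.0771), SAXO2 (0.0898) and, after NR4A2, PTGES3L (0.0916) for NR4A3. With a minimum mean of 200 normalized counts, 2 of the 5 named for NR4A2 and 1 of the 5 for NR4A3 remained, so these neighbors in profile depend on that limit.

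The cell type label was checked against marker genes. The vesicular glutamate transporters SLC17A6 and SLC17A7, which define glutamatergic neurons, had means of 13442 and 3055 normalized counts untreated and 13606 and 3179 with isoproterenol. They belong to a list of 10 markers, some of which (MAP2, TUBB3, RBFOX3, SYN1 and DCX) mark neurons in general. Of the 10, 9 had at least 50 normalized counts, NEUROD2 being lower. TUBB3 was not far above that limit, with means of 77.7 untreated and 81.1 with isoproterenol. The list summed to 84151 to 86684 untreated and 85378 to 89189 with isoproterenol, mostly from MAP2 and DCX. The 4 microglial markers and, of 4 astrocyte markers, GFAP and ALDH1L1 were not analysed here. The sum of the other 2 astrocyte markers ran from 159.8 to 175.1 untreated and from 134.4 to 156.8 treated. The 3 GABAergic markers, none of which reached 50 normalized counts, summed to 55.3 to 60.0 untreated and 66.9 to 79.0 treated. GAD1 and GAD2 were higher in every pair (log2 change 0.74 and 0.49) and SLC32A1 lower in every pair (-0.38), and 0 of the 3 passed FDR 0.05 in limma, edgeR or DESeq2 with or without the block, with 0 unadjusted p-values under 0.05 in limma without it. The astrocyte and GABAergic sums did not overlap between groups, and their part in the NR4A values was not tested. The sums of the 3 pluripotency markers with a row, the single proliferation marker with a row and the 4 dopaminergic markers overlapped between groups (51.2 to 84.2 and 59.9 to 71.5, 112.2 to 147.2 and 123.1 to 144.7, and 507.5 to 642.4 and 515.9 to 648.3).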

How the data were processed

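Poly(A)-selected RNA of 6 samples (3 untreated, 3 isoproterenol) was sequenced. The authors aligned reads to GRCh38 with STAR and counted them per gene with featureCounts, without a stated strand setting or versions. Their deposited values are a signal, namely read counts divided by the DESeq2 size factor of each sample. All values above 0 (100%) were whole multiples of 1 step per column within 0.1 reads, which returned 18116816 to 21488793 reads per sample. Groups and replicate numbers came from the sample titles. Replicates within a group were distinct libraries (chi-square per degree of freedom 3.32 to 5.47).

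A gene was kept when more than 5 reads were recovered from 4 samples or more (18130 of 19823, 1693 removed). GENCODE release 44 held 99.6% of the identifiers. The test was limma 3.58.1 in R 4.3.3 (intensity trend, robust) on log2(normalized count + 1), two-sided, with Benjamini-Hochberg adjustment over all genes tested and FDR 0.05. Fold changes on this scale understate the change of low genes. A planned fit added the replicate number as a block. After subtraction of group means, samples sharing a number correlated at 0.269, 0.493 and 0.388 (11587 genes averaging 100 or more). Each value exceeded 0.1, the numbers were therefore treated as pairs, and blocked values are printed where they change a call. Printed SEs come from the limma fit without the block. With the block the SEs of NR4A1, NR4A2 and NR4A3 were 0.32, 0.16 and 0.044. Alternatives were edgeR 4.0.16 and DESeq2 1.42.0 on recovered reads, TMM and total scaling, pseudocounts of 0.5 and 5, no filter, a minimum mean of 50, and each sample left out. The fits were tested on simulated data with known changes.

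The genes and lists were chosen with earlier results of these data known. Lists of immediate early genes, nuclear receptors, coregulators, upstream factors, targets and cell markers came from general knowledge. Named genes were the NR4A genes, the 5 nearest in profile to each, up to 6 called members per list by absolute change (otherwise the 3 with the largest change and a mean of at least 50), the 3 nearest tested neighbors within 500 kb, and RXRA, RXRB, RXRG and RBM12. Some genes that this rule names are not reported here. Receptors named for their place by level were chosen after their values were seen. Motif searches in the RefSeq windows, primer mapping and the canonical length were likewise chosen after seeing the data. Python 3.11.15 was used for all other steps.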

Additional observations from a re-analysis of the deposited data

How the results depend on the processing

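The log2 changes of NR4A1, NR4A2 and NR4A3 kept their sign in each of 17 alternatives, within 1.85 to 2.68, 0.45 to 0.61 and 0.42 to 0.55. Leaving out each sample in turn set the ends of all 3 ranges. The medians of the other immediate early genes (0.56 to 0.75 over left-out samples), of the other nuclear receptors (-0.069 to 0.00096) and of the genes within 500 kb (-0.055 to 0.034) moved by less than the spread between pairs, and the last 2 changed sign near 0.

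The number of genes past FDR 0.05 depended most on pairing. It was 3 in limma without the replicate block and 885 with the replicate block, 10 and 925 in edgeR, and 21 and 143 in DESeq2. Leaving out a sample gave 2 to 67, the highest without isoproterenol replicate 2. The causes were not tested.

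Untreated levels per kb of NR4A1, NR4A2 and NR4A3 were 24.1, 20.1 and 214.6 on the longest transcript and 46.8, 20.1 and 218.5 on the canonical one, the latter chosen after seeing the data. With a minimum mean of 200, 2 of the 5 genes nearest to NR4A2 and 1 of those nearest to NR4A3 were shared with the limit of 50. Depth limits NR4A2 most, at 60 to 106 reads per sample.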
